A study of Drosophila melanogaster and Drosophila virilis with 60 samples.

Results

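The results concern 6 of the 30 *D. melanogaster* libraries of the study, or of 60 libraries in all, and set the 3 libraries of stage P4 against the 3 libraries of stage P3. They were chosen by their stage labels alone. The animals were wild-type Oregon-R flies kept at 25 °C, and libraries were made from poly(A) RNA of the entire body, with 15 to 18 individuals of unseparated sex pooled for each pupal replicate. P4 animals were at the buoyant stage, which leads up to head eversion, whereas P3 animals were prepupae with an abdominal gas bubble (staging of Bainbridge and Bownes). The labels give no treatment and no further genotype, and the replicates are named as biological.

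Around puparium formation a pulse of the steroid hormone 20-hydroxyecdysone ends larval life, and its titer falls in the middle of the prepupal period before the next pulse drives head eversion and the start of the pupal stage. In between, nuclear receptors pass the signal on in a fixed order, with Hr3 and its partner Eip75B preceding ftz-f1, the competence factor for the prepupal pulse. The imaginal discs evert and secrete the pupal cuticle during the same hours, while larval organs such as the salivary glands and the midgut begin to break down.

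Genes were compared on the deposited log2 scale, and levels are printed as normalized counts, that is counts recovered from the deposited values and divided by a size factor of the library. The recovered totals were 9107942, 10102896 and 9422011 counts for P4 replicates 1 to 3, against 8493968, 7892283 and 9889164 for P3 replicates 1 to 3, and 12877 to 13053 genes had a count in P4 libraries, against 12575 to 12698 in P3 libraries. The study's text gives fewer reads per sample than these totals, so that it is not settled how a recovered count relates to a sequenced read. The spread between replicates had a median SD of 0.25 log2 units at P4 and of 0.20 at P3 over the 11304 genes tested. It was 0.16 at P4 without replicate 1, against 0.20 without replicate 2 and 0.25 without replicate 3. At P3 it was 0.11 without replicate 3, against 0.16 without replicate 1 and 0.21 without replicate 2. A median SD of 2 libraries tends to be smaller than that of 3, so that these are compared with each other only. Spearman coefficients across genes were 0.942 to 0.965 between replicates of P4 and 0.966 to 0.987 between those of P3, against 0.787 to 0.877 for pairs of a P4 and a P3 library. Part of the spread followed the length of the transcript. In the 333 tested genes with a transcript of 8000 or more bases, the median deviation from the stage mean was -0.72 log2 units in P4 replicate 1, against 0.29 and 0.44 in P4 replicates 2 and 3, and -0.44 in P3 replicate 3, against 0.28 and 0.16 in P3 replicates 1 and 2. These 2 libraries were low for long transcripts and high for short ones, and the part that RNA quality plays in this was not tested.

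**Figure D1:**
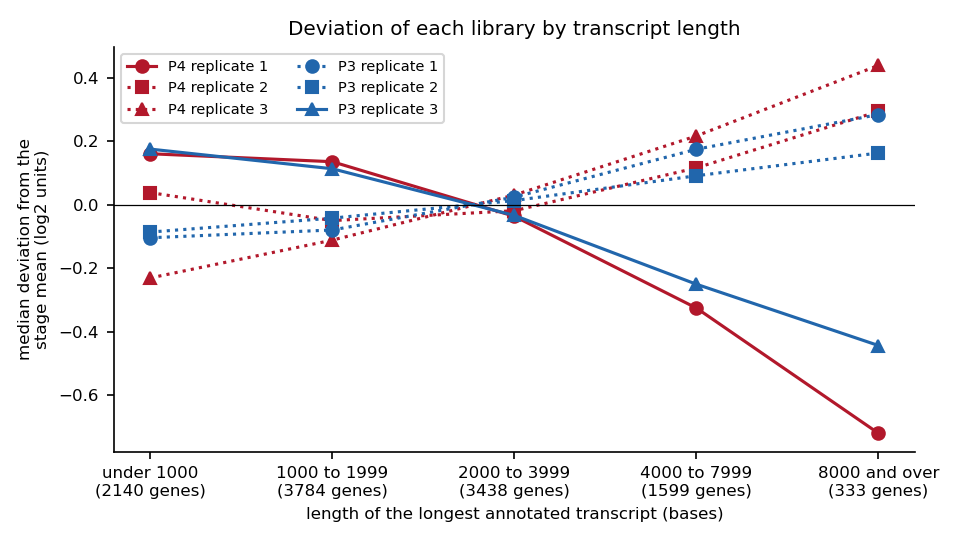
Median deviation of each library from the mean of its stage (y axis, log2 units) in 5 classes of transcript length (x axis, bases; longest annotated transcript per gene). Red lines are P4 and blue lines P3 libraries, and the solid lines, P4 replicate 1 and P3 replicate 3, reach -0.72 and -0.44 in the longest class.

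Of the 11304 genes tested, 1481 (13.1%) were higher and 1179 (10.4%) lower in P4 than in P3 (limma, adjusted p under 0.05, 23.5% of all genes tested). Counts of called genes in the lists below are to be read against the 13.1% and 10.4% over all genes tested. In any list, a gene near 0 counts in 1 stage could pass the filter on low levels only through the other stage. Its difference was then set by the filter. A difference of at least 1 log2 unit was reached by 846 of the higher genes (7.48% of genes tested) and 588 of the lower genes (5.20%). The median difference over all genes was +0.11 log2 units, and single genes are to be read against that shift. It varied with transcript length, from 0.32 in the 2140 genes with a transcript under 1000 bases (17.7% higher, 5.47% lower) to -0.02 in the 3438 genes of the middle of 5 length classes (12.4% higher, 15.2% lower) and 0.53 in the 333 genes at 8000 bases and over (10.5% higher, 1.80% lower). With the medians of the libraries set equal, 1192 genes were higher and 1520 lower, so that the share of higher genes among the calls was 44.0%, against 55.7% on the deposited scale. On log2(CPM + 1) values of the recovered counts it was 42.9% (1094 of 2553 calls). Without P4 replicate 1 and P3 replicate 3, a setting chosen after seeing the data, 1513 genes were higher and 1347 lower. Of the 6 fits that left out 1 library, that without P3 replicate 2 had the fewest calls, with 841 higher and 686 lower genes. Lack of overlap between the stages is given for some genes as a description. Its share over all genes tested is not given here, so that nothing is read from it. As whole animals were sequenced, fewer cells of a type and less RNA per cell cannot be told apart.

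**Figure D2:**
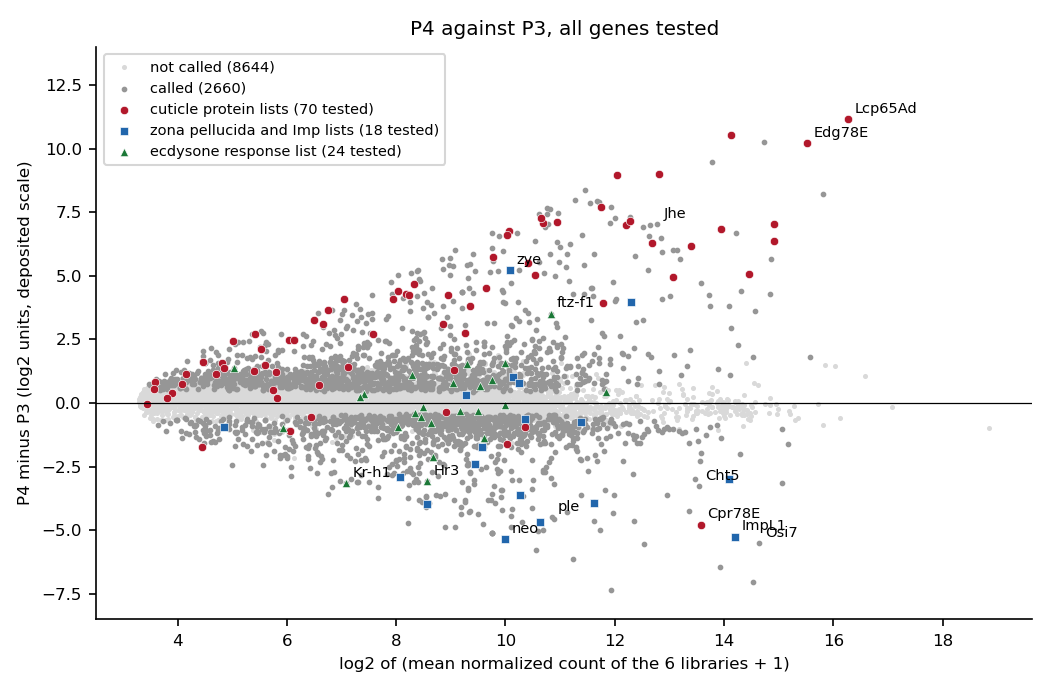
Difference between P4 and P3 (y axis, log2 units of the deposited scale) against the log2 of the mean normalized count of the 6 libraries plus 1 (x axis) for 11304 genes. Light grey points were not called and dark grey points were called. Most cuticle protein genes (red circles) lie above 0, up to 11.16 for Lcp65Ad, whereas 13 of 18 zona pellucida and Imp genes (blue squares) were called lower in P4. Ecdysone response genes (green triangles) lie on both sides.

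Of the 12 genes with the largest rise, 5 were named cuticle protein genes and 7 were uncharacterized. Lcp65Ad, a chitin-binding protein of the Lcp65A cluster (chromosome 3L, 6143395 to 6144101, BDGP6), had 181038, 166097 and 128199 normalized counts at P4, against 38.9, 24.3 and 57.3 at P3. Each P4 library lay more than 3 orders of magnitude above every P3 library, and the difference was 11.16 ± 0.23 log2 units (SE; limma, adjusted p = 4.52e-08). Edg78E, a pupal cuticle protein first found by its ecdysone dependence, had 103290.0, 102244 and 77722 normalized counts at P4, against 36.9, 45.1 and 68.5 at P3, a 1883-fold difference. Cpr78Cc, another protein with the chitin-binding domain of the Cpr family, had 15833, 14991 and 12022 normalized counts at P4, against 1.99, 8.09 and 3.07 at P3. In Ccp84Ae, a cuticle gene of the 84A cluster, no P3 library had a count, while the P4 libraries had 9719.6, 8295 and 7276 normalized counts, which is at least 8000.3-fold higher against a floor of 3 counts over the P3 libraries. The uncharacterized gene CG14095 also had no count at P3 and was at least 5330.1-fold higher in P4, with 6419, 5381 and 5049 normalized counts. The 12 genes were taken from called genes without overlap between the stages, so that nothing is read from their separation. The other genes among those 12 were Lcp65Ag2 and the uncharacterized CG15212, CG13731, CG12164, CG14564, CG30375 and CG13051, whose differences ran from 7.91 to 10.55 log2 units. On the deposited scale such differences are compressed near 0 counts.

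All 9 tested genes of the Lcp65A cluster, 6 of 6 tested Ccp84A genes and 4 of 4 Edg and Pcp pupal cuticle genes rose, against 13.1% of all genes tested. The median differences were 4.09, 5.27 and 6.47 log2 units, against 0.11 over all genes. Another 2 Lcp65A genes and 1 Ccp84A gene were below the expression filter. A member with almost no counts at P3 could pass the filter only through its P4 level, so that its rise was set by the filter. In the Lcp65A cluster the P4 levels spanned a wide range, from 43.4, 50.8 and 25.8 normalized counts in Lcp65Af to 41719, 35398 and 30899.5 normalized counts in Lcp65Ag2, whereas no P3 library exceeded 57.3 normalized counts in any of the 9. Lcp65Ag1, Lcp65Ag2 and Lcp65Ag3 are near-identical copies, so that the split of reads among them is uncertain. Among the Edg genes, Edg84A had 23825, 21611 and 18056 normalized counts at P4, against 219, 235 and 325 at P3. The P4 libraries lay 81.5-fold higher on average. Edg91, a glycine-rich pupal cuticle protein, had 2338, 2396 and 1699 normalized counts and 2 counts in all at P3. Pcp, a pupal cuticle protein that lies within an intron of Gart, had 6425, 8800.0 and 4725 normalized counts at P4, against 304, 366 and 521 at P3, and reads of the overlapping pair cannot be told apart where strand was not used in counting.

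Of the 41 tested Cpr genes, which encode further chitin-binding cuticle proteins, 30 rose and 6 fell, with a median difference of 2.12 log2 units. Cpr51A had 73531, 59954 and 50373 normalized counts at P4, against 328, 422 and 558 at P3. Cpr65Ec, a gene next to Cpr65Ea and Cpr65Eb, had 34437, 33982 and 25889 normalized counts at P4, against 189, 218 and 339 at P3. Their differences were 7.04 and 6.83 log2 units. The 6 Cpr genes that fell were Cpr78E, Cpr65Ay, Cpr49Ac, Cpr78Ca, Cpr12A and Cpr56F. The Cpr56F call was lost without any 1 P3 library or P4 replicate 2 or 3 (limma, adjusted p up to 0.162). Cpr78E, the one with the largest fall, had 1216, 691 and 598 normalized counts at P4, against 17378, 20400.4 and 33302 at P3, so that it was 28.4-fold lower in P4. Another 29 Cpr genes were below the expression filter. Of the 10 tested Tweedle genes, which encode a separate family of cuticle proteins, 7 rose and none fell at this threshold. Another 16 Tweedle genes were below the filter, and Cpr and Tweedle genes near 0 counts at P3 also passed it only through their P4 level. TwdlE had 61868, 59802 and 61972 normalized counts at P4, against 761, 596 and 798 at P3. Twdlbeta had 14544, 11986 and 12298 normalized counts at P4, against 123, 106 and 169.8 at P3. TwdlT had 40400.1, 39364 and 50969 normalized counts at P4, against 1329, 1004 and 1450.4 at P3. The P4 values varied by less than 1.5-fold between replicates in each of the 3, and no P3 library came near them. Among the larval cuticle genes, Lcp1, Lcp2 and Lcp4 rose by 2.10, 2.05 and 1.78 log2 units, although their names come from the larva. Lcp3 was lower by 0.61 log2 units, a call that was lost with any 1 library left out (limma, adjusted p up to 0.109).

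Most genes of a further group of chitin-binding matrix proteins rose as well. Gasp, obst-A, obst-B and obst-E rose and obst-J fell among the 6 tested genes of the list, whose median difference was 2.11 log2 units. The obst-J call was lost without P4 replicate 2 or 3 or P3 replicate 2 or 3 (limma, adjusted p up to 0.0896). Gasp, which is needed for the cuticle and tracheal matrix, had 59918, 51731 and 55184 normalized counts at P4, against 2796, 3184 and 2570.5 at P3. The difference of obst-E was larger, with 7429, 5188 and 5233 normalized counts at P4, against 6.97, 0 and 6.14 at P3. With so few counts at P3, obst-E passed the filter only through its P4 level, so that its rise was set by the filter.

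The fall at P4 was led by genes of other kinds. The uncharacterized CG7906 had 25.8, 19.0 and 14.4 normalized counts at P4, against 7272, 9299 and 6928 at P3, and its difference was -7.37 ± 0.18 log2 units (SE; limma, adjusted p = 5.74e-08). CG32631, also uncharacterized, had 397, 254 and 338 normalized counts at P4, against 42491, 48988 and 49735 at P3. CG11816 had 399.8, 266 and 310.5 normalized counts at P4, against 26763, 32581 and 33680.2 at P3, and CG34244 and CG4702 fell by 6.12 and 5.55 log2 units. The genes with the largest falls were likewise taken from called genes without overlap between the stages. The tarsal-less locus, a single polycistronic transcript that encodes small peptides, had 21.1, 19.0 and 23.7 normalized counts at P4, against 1702, 1772 and 1602 at P3 in each of its 4 gene identifiers (tal-1A, tal-2A, tal-3A and tal-AA), whose values were identical, so that this is 1 measurement counted 4 times.

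Most listed genes of the apical extracellular matrix and of the ecdysone-inducible disc genes fell. All 12 tested genes with a zona pellucida domain were called, 8 lower and 4 higher in P4, with a median difference of -0.84 log2 units. The genes neo, nyo, mey, tyn and m encode membrane-bound matrix proteins that shape epidermal cells. The neo gene had 24.6, 26.3 and 16.5 normalized counts at P4, against 2009.5, 2211 and 1846 at P3, and the nyo gene had 78.6, 87.0 and 104 normalized counts at P4, against 3336, 3213 and 2687 at P3. The P4 libraries of neo lay 90.0-fold and those of nyo 34.2-fold below P3. The m (miniature) gene had 42.2, 26.3 and 50.5 normalized counts at P4, against 573, 560.3 and 347 at P3, and dy (dusky), its close relative that was not on the list, had 17.6, 25.4 and 36.1 normalized counts at P4, against 3464, 3199 and 2355 at P3. Both are known for their effect on wing size. The 4 members that rose were zye, dpy, pio and pot. The zye gene had 974, 2543 and 2888 normalized counts at P4, against 35.9, 18.5 and 19.4 at P3. The dpy gene encodes a giant filamentous protein that anchors the epidermis to the cuticle, and it had 2078, 9408 and 17304 normalized counts at P4, against 571, 557 and 228 at P3, 3.95 ± 0.71 log2 units (SE; limma, adjusted p = 0.00477). Its transcript has 71382 bases, and P4 replicate 1, which was low for long transcripts, had the lowest P4 value.

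The ImpE and ImpL genes, found through their induction by ecdysone in imaginal discs, fell in 5 of 6 cases, with a median difference of -2.69 log2 units. ImpL1 had 907, 999.6 and 881 normalized counts at P4, against 36664, 35895 and 37947 at P3, which is 39.6-fold lower in P4. ImpE2 had 4377, 3232 and 4015 normalized counts at P4, against 29136, 31257 and 32866 at P3, and the gene of the receptor-like membrane protein ImpE1 had 277, 338 and 458 normalized counts at P4, against 6787, 6744 and 4285 at P3. ImpE3 and Ldh, which is also known as ImpL3, fell by 2.39 and 1.72 log2 units. ImpL2, a secreted binding protein of insulin-like peptides, had 640.2, 636 and 792 normalized counts at P4, against 558, 538 and 535 at P3, and it was not called.

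The Osiris genes, a family of membrane proteins of insects that was listed after the values had been seen, mostly moved in the same direction. Of 16 tested, 10 were lower and 3 higher in P4. Osi7 had 795, 760.4 and 1939 normalized counts at P4, against 58296, 46279 and 45356 at P3, a 42.9-fold lower mean in P4. Osi17, Osi18, Osi19 and Osi20 are neighbours on chromosome 3R (6311772 to 6341424) and fell by 2.24 to 4.36 log2 units. Osi2, in contrast, had 8996, 7362 and 7407 normalized counts at P4, against 420.4, 358 and 550.3 at P3, and it was called higher. The 5 spätzle family genes, also listed after the values had been seen, encode ligands of Toll receptors or relatives of such ligands. Of these 5, spz6, spz4 and spz fell and spz3 and spz5 rose. The spz6 gene had 131, 107 and 137 normalized counts at P4, against 3312, 3343 and 4312 at P3, and spz4 had 18.8, 30.8 and 34.0 normalized counts at P4, against 1235, 1206 and 947 at P3. The stages were separated by over an order of magnitude in both. Spn100A, a member of the serpin family of protease inhibitors, had 419, 301 and 396 normalized counts at P4, against 8831, 11546 and 10043 at P3. Of the 17 tested serpins, also listed after the values had been seen, 9 rose and 2 fell, against 13.1% and 10.4% of all genes tested. Among those that rose, Spn88Ea had 6385, 4597 and 5475 normalized counts at P4, against 1035, 1138 and 1351 at P3.

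**Figure D3:**
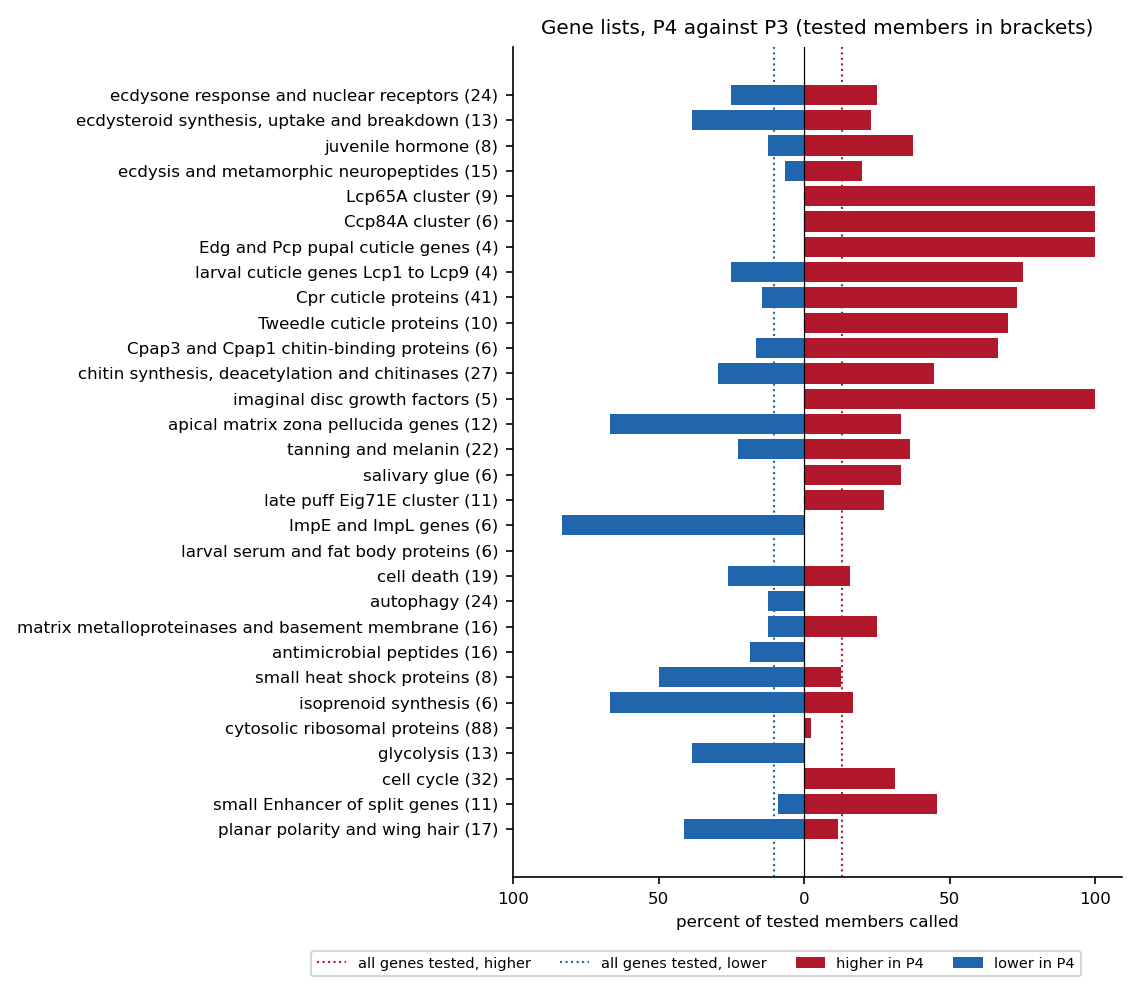
Percent of the tested members of 30 gene lists that were called higher (red, to the right) or lower (blue, to the left) in P4, with the number tested in brackets (x axis, percent; dotted lines, all genes tested, 13.1% higher and 10.4% lower). All 9 tested Lcp65A, 6 tested Ccp84A and 4 tested Edg and Pcp genes were called higher, and 5 of 6 Imp genes and 8 of 12 zona pellucida genes lower.

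Of 24 ecdysone response genes and nuclear receptors, 6 rose, 6 fell and 12 were not called, with a median difference of -0.12 log2 units. The ftz-f1 gene had 2115, 4339 and 3655 normalized counts at P4, against 411, 238 and 161 at P3. Its P4 libraries lay 12.5-fold above P3 on average, 3.51 ± 0.35 log2 units (SE; limma, adjusted p = 0.000179). Among the other nuclear receptors, Hr3, Hr4 and Eip75B fell. Hr3, the nuclear receptor that activates ftz-f1, had 30.5, 50.8 and 90.8 normalized counts at P4, against 869, 752 and 469 at P3. Hr4, a further orphan receptor of the same wave, had 55.1, 162 and 186 normalized counts at P4, against 818, 813 and 403 at P3. Eip75B, a heme-binding receptor that represses Hr3 activity, had 258, 487 and 500.3 normalized counts at P4, against 1384, 1377 and 655 at P3. All 3 were lower in P4, by 3.08, 2.14 and 1.36 log2 units (limma, adjusted p = 0.000171, 0.00559 and 0.0232). The Eip75B call was lost without P3 replicate 1 or 2 (adjusted p up to 0.0994), while those of ftz-f1, Hr3 and Hr4 held with any 1 library left out. Kr-h1, a zinc finger factor that acts downstream of juvenile hormone and blocks metamorphosis, had 4.69, 5.44 and 13.4 normalized counts at P4, against 279, 327 and 180.0 at P3, and its difference was -3.15 ± 0.24 log2 units (SE; limma, adjusted p = 3.08e-05).

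Eip74EF, an ETS-domain factor encoded by an early puff, had 625, 1119 and 1124 normalized counts at P4, against 367, 302 and 236 at P3, and it rose by 1.54 log2 units. Hr38, a receptor of the NGFI-B type, Eip63F-1, a calcium-binding protein, and Eip63E, a cyclin-dependent kinase, rose by 1.39, 1.11 and 0.90 log2 units. The gene of tai, a coactivator of the ecdysone receptor, had 763, 2020.1 and 1877 normalized counts at P4, against 651, 557 and 270.0 at P3, and this call was lost on either CPM scale and without P4 replicate 2 or 3 or P3 replicate 2 or 3 (limma, adjusted p up to 0.0943). The genes svp, an orphan receptor, and Cth (Eip55E), an enzyme of cysteine synthesis, fell by 0.93 and 0.77 log2 units, and the svp call was lost without P4 replicate 2 or P3 replicate 1 or 2 (limma, adjusted p up to 0.105). EcR, the ecdysone receptor, had 386, 788 and 824 normalized counts at P4, against 531, 425 and 192 at P3, and it overlapped between stages. The br gene, which encodes the Broad factor of pupal commitment, had 2158, 4975 and 5752 normalized counts at P4, against 3564, 3485 and 1992 at P3, with an adjusted p of 0.44 in limma. Eip93F, which promotes the death of larval tissues, had 317, 1798 and 688 normalized counts at P4, against 752, 719.7 and 159 at P3. In all 3 genes, P4 replicate 1 had the lowest P4 value and P3 replicate 3 the lowest P3 value, and their transcripts have 8415, 9822 and 12020 bases.

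**Figure D4:**
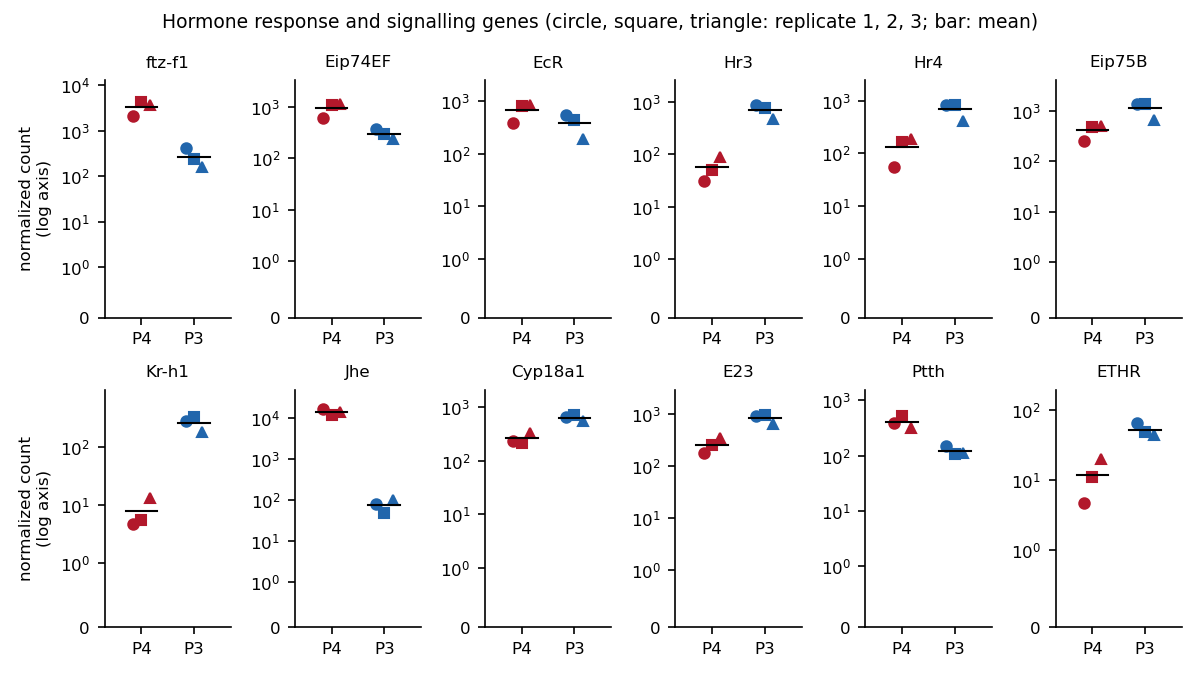
Normalized counts (y axis, log axis, linear below 1) of 12 genes of hormone response and signalling in the 3 P4 libraries (red) and the 3 P3 libraries (blue), with circles, squares and triangles for replicates 1, 2 and 3 and bars for means. The ftz-f1 points lie at 2115 to 4339 in P4, against 161 to 411 in P3, and EcR overlaps between the stages.

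Of 13 tested genes for the synthesis, uptake and breakdown of ecdysteroids, 3 rose and 5 fell. The gene sad, whose product hydroxylates the ecdysone precursor, had 63.3, 43.5 and 36.1 normalized counts at P4, against 352, 416 and 479 at P3, and it fell to a mean 8.72-fold below P3. The gene shd, for the enzyme that converts ecdysone to its active form in peripheral tissues, had 62.1, 89.7 and 60.9 normalized counts at P4, against 7.97, 21.9 and 15.3 at P3, and it rose by 1.29 log2 units. The gene phtm, for an earlier enzyme of the pathway, rose by 0.49 log2 units, but the call was lost with any 1 library left out (limma, adjusted p up to 0.134). Cyp18a1, which inactivates the active hormone, had 231, 214 and 334 normalized counts at P4, against 649, 699 and 541 at P3, whereas Eo, an ecdysone oxidase, had 274, 175 and 267 normalized counts at P4, against 87.7, 109 and 80.8 at P3. These enzymes of hormone breakdown thus differed in opposite directions. E23, an ABC transporter, Oatp74D, which imports ecdysone into cells, and mld, a zinc finger factor of the hormone-producing gland, fell by 1.63, 0.98 and 1.21 log2 units. The Oatp74D call was lost without P3 replicate 2 (limma, adjusted p = 0.0717).

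Among 8 juvenile hormone genes, Jhe, Jheh2 and JhI-26 rose and JhI-21 fell. Jhe, the esterase that degrades juvenile hormone, had 16087, 11984 and 13801 normalized counts at P4, against 79.7, 48.5 and 100.2 at P3, a 183-fold rise with 7.05 ± 0.22 log2 units (SE; limma, adjusted p = 1.58e-07). Jheh2, an epoxide hydrolase of the same breakdown route, had 1459.7, 1128 and 1237 normalized counts at P4, against 695, 843 and 834 at P3. Jhe was the single higher call without P3 replicate 1 or 2, where the adjusted p of Jheh2 reached 0.0722 in limma, and with the medians of the libraries set equal. The JhI-26 call was also lost without P4 replicate 1 or 2 or P3 replicate 3 (adjusted p up to 0.154 over these libraries). The receptors Met and gce had 34.8 to 129 and 17.4 to 61.2 normalized counts over the 6 libraries and were not called.

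Of 15 tested genes of ecdysis and metamorphic neuropeptides, 3 rose and 1 fell. These calls were 26.7% of the list, against 23.5% of all genes tested, so that nothing is read from their number. Ptth, the brain hormone that stimulates the prothoracic gland, had 385, 517 and 319.8 normalized counts at P4, against 150.4, 106 and 109 at P3. The gene rk, for the receptor of bursicon, had 166, 300.0 and 254 normalized counts at P4, against 86.7, 102 and 51.1 at P3. Ilp8, a relaxin-like signal of growing discs, had 44.6, 34.4 and 27.9 normalized counts at P4, against 4.98, 3.47 and 3.07 at P3. These were the 3 higher calls of the list. ETHR, the receptor of ecdysis triggering hormone, had 4.69, 10.9 and 19.6 normalized counts at P4, against 64.8, 48.5 and 44.0 at P3, whereas the gene of the hormone itself, ETH, had 163, 95.2 and 124 normalized counts at P4, against 80.7, 102 and 125 at P3, and it was not called.

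Genes of chitin synthesis and turnover moved in both directions. Of 27 tested genes, 12 rose and 8 fell, with a median difference of 0.77 log2 units. Gfat1, the first enzyme of the route to UDP-N-acetylglucosamine, had 10014, 10414 and 11673 normalized counts at P4, against 1138, 1067 and 1039 at P3. The gene mmy, which acts at the end of that route, had 9851, 7304 and 8455 normalized counts at P4, against 1634, 1929 and 2015 at P3. Both genes rose, whereas the intermediate enzyme nst fell by 0.97 log2 units. The gene kkv, for the chitin synthase of the epidermis, had 2115, 3815 and 3781 normalized counts at P4, against 2045, 2021 and 1594 at P3, and it was not called (limma, adjusted p = 0.0716). Chs2, the second chitin synthase, rose by 1.28 log2 units. The chitin deacetylase gene serp had 27773, 31524 and 38182 normalized counts at P4, against 2234, 2656 and 2016 at P3. Its relative verm had 45126, 37210.0 and 52812 normalized counts at P4, against 3294, 4017 and 3516 at P3. Both were over 10-fold higher in P4 when means are compared. Cda4, another deacetylase, had 3971, 4198 and 5239 normalized counts at P4, against 157, 111 and 119.7 at P3 and rose by 4.80 log2 units. Among the chitinases, Cht8 had 481, 537 and 428 normalized counts at P4, against 1.99, 5.78 and 3.07 at P3, a 133-fold rise, the largest fold of the list. Cht8 also passed the filter only through its P4 level, so that its rise was set by the filter. Cht5, in contrast, had 2307, 2188 and 2227 normalized counts at P4, against 20864, 22386 and 21916 at P3, and Cht10 had 379.9, 575 and 857 normalized counts at P4, against 7861, 8272 and 6255 at P3. Both were called lower in P4. Cht6 rose and had 2164, 5137 and 8747 normalized counts at P4, against 260.0, 199 and 166 at P3, with the lowest P4 value in replicate 1 and a transcript of 14423 bases. Hexo1 and Hexo2, hexosaminidases that split chitin fragments, fell by 1.30 and 0.67 log2 units. The Hexo2 call was lost without P4 replicate 2 or 3 or P3 replicate 2 or 3 (limma, adjusted p up to 0.126).

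All 5 tested imaginal disc growth factors, secreted relatives of chitinases, rose, with a median difference of 0.66 log2 units. Idgf4 had 19514, 15274 and 16664 normalized counts at P4, against 3770.0, 4083 and 4259 at P3, and Idgf6 rose by 1.91 log2 units. The calls of Idgf1, Idgf2 and Idgf3 were lost with the medians of the libraries set equal, and 2 or 3 of the 5 genes were called without any 1 of the libraries other than P3 replicate 3 (limma, adjusted p up to 0.103, 0.156 and 0.183).

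Of 22 tanning and melanin genes, 8 rose and 5 fell. The gene ple, for the tyrosine hydroxylase at the start of catecholamine synthesis, had 104, 128 and 144 normalized counts at P4, against 4395, 3693 and 2563 at P3, a 28.3-fold fall. Pu, which supplies its cofactor, and b and e, which act in the beta-alanine branch, fell by 1.51, 1.64 and 1.73 log2 units. Ddc, the decarboxylase that follows tyrosine hydroxylase, had 200.5, 227 and 201 normalized counts at P4, against 34.9, 31.2 and 91.0 at P3. The genes of these consecutive enzymes thus differed in opposite directions. The y (yellow) gene and yellow-h rose by 1.86 and 2.00 log2 units. PPO2, a prophenoloxidase of blood crystal cells, rose too, with 57.4, 35.3 and 45.4 normalized counts at P4, against 8.97, 2.31 and 5.11 at P3.

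Of the salivary gland and fat body products of the larva, 5 genes rose in 2 of the 3 lists and none was called in the third. Of 11 tested genes of the late puff Eig71E cluster, which encode small secreted peptides, Eig71Ej, Eig71Ek and Eig71Eb rose and none fell, although 2 were called lower without P4 replicate 1. The share called was 27.3%, against 23.5% of all genes tested. Eig71Ej had 14701, 18378 and 11064 normalized counts at P4, against 220.2, 169.8 and 230.1 at P3, and Eig71Ek had 8613, 21240.4 and 8280.1 normalized counts at P4, against 85.7, 45.1 and 51.1 at P3. The other 8 were not called, and their P4 minus P3 differences ran from -1.07 to 0.80 log2 units. Among 6 tested glue genes, which encode the proteins that fix the puparium to its support, Sgs3 had 1035, 1047 and 1125 normalized counts at P4, against 399.5, 372 and 518 at P3, and Sgs1 had 61.0, 118 and 93.9 normalized counts at P4, against 3.99, 10.4 and 2.05 at P3. Both were higher in P4, and the other 4 were not called. None of the 6 larval serum and fat body genes was called in limma, although the P4 values of Fbp1 and Fbp2 lay 0.98 and 0.88 log2 units below P3. Fbp1, a receptor for the storage proteins, had 314840.0, 270800.0 and 378478 normalized counts at P4, against 606822, 658427 and 622611 at P3, without overlap and with an adjusted p of 0.17. At an unadjusted p under 0.05, 2 of the 6 genes differed, and on either CPM scale 3 were called lower. Without P4 replicate 1, 1 of them was called lower.

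Of 19 cell death genes, 3 rose and 5 fell. The inducer rpr had 304, 429 and 284 normalized counts at P4, against 505, 453 and 348 at P3. The inducer hid had 318, 490.3 and 419.8 normalized counts at P4, against 1099.9, 1002 and 448 at P3, and neither was called. Dark, the Apaf-1 homologue, and Drice, an executioner caspase, fell by 0.84 and 0.56 log2 units, and Dcp-1, a further executioner caspase, rose by 0.67. Damm, another caspase, had 102, 121 and 64.0 normalized counts at P4, against 11.0, 13.9 and 19.4 at P3. Without P3 replicate 2 only 1 gene was higher and 2 were lower, and the calls of Dcp-1 (limma, adjusted p = 0.0744) and Drice were lost. Drice was also not called without P4 replicate 2 or 3 or P3 replicate 1 or 3 (adjusted p up to 0.122 over these libraries). With the medians of the libraries set equal, 8 genes were lower. Among 24 autophagy genes, Atg3, Atg5 and Atg7, which act in the conjugation of Atg proteins, fell by 0.50 to 0.81 log2 units and none rose at this threshold, with a median difference of -0.07 over the list. The lower calls were 12.5% of the list, against 10.4% of all genes tested, so that nothing is read from their number. The calls of all 3 were lost without P3 replicate 2, with adjusted p up to 0.0656, 0.15 and 0.12 over the libraries left out (limma), and Atg3 was the single call without P4 replicate 3 or P3 replicate 3.

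Of 16 genes of matrix metalloproteinases and basement membrane, 4 rose and 2 fell. Mmp1, a metalloproteinase needed for tissue remodelling, had 932, 1285 and 1059 normalized counts at P4, against 2971, 2917 and 1965 at P3. Timp, the inhibitor of these enzymes, had 3786, 2645 and 3256 normalized counts at P4, against 939.5, 891 and 854 at P3. Mmp1 was called lower and Timp higher in P4. AdamTS-A, a protease of the extracellular matrix, fell by 1.53 log2 units, while Ndg, the nidogen gene, and vkg, which encodes a collagen IV chain, rose by 1.31 and 1.40. The vkg call was lost on either CPM scale and without any 1 P3 library or P4 replicate 2 or 3 (limma, adjusted p up to 0.0883). Without P4 replicate 1, 7 genes of the list were higher, and without P3 replicate 1 or 2 there were 2.

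Of 32 cell cycle genes, 10 rose and none fell in limma, with a median difference of 0.38 log2 units, against 0.11 over all genes. At an unadjusted p under 0.05, 1 gene was lower in P4. The gene fzr, for an activator of the anaphase-promoting complex that drives cells out of division, had 569.8, 595 and 634 normalized counts at P4, against 228, 228 and 175 at P3. The gene geminin, for an inhibitor of replication licensing, had 419, 364 and 363 normalized counts at P4, against 165, 223 and 221 at P3. Cdk4, fzy, Mcm2 and Mcm6, which act in growth, anaphase and DNA replication, rose by 0.79, 0.77, 0.70 and 0.71 log2 units. Without P3 replicate 2, 4 genes of the list were called higher, and the calls of Mcm2 and Mcm6 were lost (limma, adjusted p up to 0.0961 and 0.0712 with any 1 library left out), that of Mcm2 also without P4 replicate 3 or P3 replicate 3. With the medians of the libraries set equal, 5 genes were higher and 1 lower. PCNA had 876, 626 and 628 normalized counts at P4, against 349.7, 418 and 550.3 at P3, and it missed the threshold (adjusted p = 0.0537). Of 11 small Enhancer of split genes, which are targets of Notch, 5 rose and 1 fell. E(spl)m4-BFM had 491, 371 and 354 normalized counts at P4, against 122, 135 and 175 at P3, and E(spl)m8-HLH had 293, 182 and 192 normalized counts at P4, against 75.7, 91.3 and 110.5 at P3. Without P3 replicate 2, 3 were called higher, and the lower call was lost with any 1 library left out.

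Of 17 genes of planar polarity and wing hairs, 7 fell and 2 rose, with a median difference of -0.31 log2 units. The mwh gene, which limits hairs to 1 per wing cell, had 11.7, 25.4 and 20.6 normalized counts at P4, against 122, 125 and 114 at P3. The gene sn, for the fascin that bundles actin in bristles and hairs, had 722, 763 and 908 normalized counts at P4, against 2864, 2721 and 1873 at P3. The gene ck, for a myosin of the same structures, had 139.5, 225 and 354 normalized counts at P4, against 845, 829 and 565 at P3. All 3 genes were called lower in P4. The gene fj, for a kinase of the Golgi that modifies cadherins, had 885, 1228 and 1185 normalized counts at P4, against 530.0, 579.9 and 439 at P3, and it rose by 1.04 log2 units. The gene ft, for one of those cadherins, had 540.5, 1552 and 2694 normalized counts at P4, against 586, 596 and 348 at P3, with overlap between the stages and a transcript of 16852 bases. Without P3 replicate 2, 4 of the list were lower. The higher calls were 4 without P4 replicate 1, ft among them, and 1 without P4 replicate 2 or 3 or P3 replicate 2 or 3.

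The lists of glycolysis and small heat shock proteins held mostly lower calls. Hmgs, which makes the precursor of mevalonate in isoprenoid synthesis, had 776, 418 and 623 normalized counts at P4, against 6178, 6482 and 7236 at P3, a 10.9-fold difference. The gene qm, for an enzyme of isoprenoid chain formation, rose by 0.60 log2 units, but its call was lost without P4 replicate 2 or 3 or P3 replicate 2 or 3 (limma, adjusted p up to 0.105). Of 13 glycolytic genes, 5 fell and none rose at this threshold, with a median difference of -0.48 log2 units. Ldh, lactate dehydrogenase, had 424, 270.1 and 322 normalized counts at P4, against 1043, 1167 and 1315 at P3, and Eno and PyK fell by 1.17 and 0.89 log2 units. At an unadjusted p under 0.05, 1 of the glycolytic genes was higher in P4, and 3 were called lower without P4 replicate 2 or 3 or any 1 P3 library. Of 8 small heat shock genes, 4 fell and 1 rose. Hsp27, known for its ecdysone response, had 5396, 5693 and 4853 normalized counts at P4, against 10866, 11592 and 10367 at P3, and CG4456 (Hsp67Bb), which overlaps the falling Hsp22, had 1247, 983 and 720.0 normalized counts at P4, against 323, 377 and 433 at P3. The Hsp22 call was lost without P4 replicate 2 or any 1 P3 library (limma, adjusted p up to 0.0723). Of 88 cytosolic ribosomal protein genes, 2 rose and none fell (unadjusted p under 0.05, 1 lower), with a median of -0.17 log2 units. The 2 calls were lost without any 1 P3 library and with the medians of the libraries set equal.

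Of 16 antimicrobial peptide genes, AttB, CecA1 and Drs were lower in P4 (18.8% of the list called, against 23.5% of all genes tested). CecA1 had 19.9, 24.5 and 8.25 normalized counts at P4, against 97.6, 176 and 270.0 at P3. Several others had 1 high library, P3 replicate 3. DptB had 21.1, 25.4 and 13.4 normalized counts at P4, against 53.8, 25.4 and 534 at P3, and Mtk had 196, 153 and 99.0 normalized counts at P4, against 216, 184 and 1025 at P3. Neither was called. Without P4 replicate 1 and P3 replicate 3 the AttB call was lost, as it was without P4 replicate 2 (limma, adjusted p = 0.0507). The Drs call was lost without P4 replicate 2 or 3 or any 1 P3 library (adjusted p up to 0.127 in limma). 1 of the 16 genes was called higher without P3 replicate 3, and 5 were lower with the medians of the libraries set equal.

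Marker lists of cell types differed in how many members were called. Of 12 muscle markers, 9 rose and none fell in limma (unadjusted p under 0.05, 0 lower), with a median difference of 1.28 log2 units and summed levels of 16802 to 20921 normalized counts at P4, against 5478 to 6742 at P3. Act57B, a muscle actin, had 10669, 8932 and 10719 normalized counts at P4, against 2414, 2890.4 and 3289 at P3. Mhc, the myosin heavy chain, had 212, 449 and 478 normalized counts at P4, against 84.7, 80.9 and 78.8 at P3. The part of muscle RNA in other differences was not tested. Of 5 tested tracheal markers, Gasp, serp and verm, which are also counted above as cuticle and chitin genes, rose, and the sums were 120839 to 146590 at P4, against 8366 to 10227 at P3. The tracheal regulators did not follow them. The gene btl, for a fibroblast growth factor receptor of the trachea, had 99.7, 108 and 109 normalized counts at P4, against 175, 156 and 149 at P3, and it was called lower, a call that was lost with any 1 library left out (limma, adjusted p up to 0.142). The gene trh, for a factor of tracheal fate, had 172, 266 and 302 normalized counts at P4, against 182, 215 and 114.6 at P3, and it was not called. Of 6 tested midgut markers, the protease genes gammaTry, deltaTry and Jon65Aiii were lower. Sums over the whole list, which also holds genes other than proteases, were 429 to 918 at P4, against 607 to 918 at P3. Neuronal markers had no call in 9 (unadjusted p under 0.05, 3), with sums of 1490 to 1827 at P4, against 1597 to 1913 at P3. Of 10 hemocyte markers, Hml and PPO2 rose and eater and srp fell. The srp call was lost without P4 replicate 2 or P3 replicate 1 or 2, and that of eater without P4 replicate 3 or P3 replicate 1 or 2 (limma, adjusted p up to 0.133 and 0.0577). Larval fat body markers summed to 480903 to 629042 at P4, against 895890 to 980488 at P3, with Adh as the single call, which was lost without P4 replicate 2 or 3 or P3 replicate 1 or 3 (limma, adjusted p up to 0.0683). Most of the difference between the sums came from Fbp1. Lsp2 overlapped between the stages, with 106580 to 152289 normalized counts at P4, against 123016 to 171308 at P3. The part of fat body RNA in other differences was not tested. Testis markers had 1 call in 10, esg, which was lower in P4 and marks other progenitor cells too, and the 3 yolk protein genes stayed below the filter. Of 11 disc markers, so, a factor of eye development, was the single call and rose, with 339, 323 and 427 normalized counts at P4, against 112, 94.7 and 74.7 at P3. The other 10 were not called (9.09% of the list called, against 23.5% of all genes tested). The median difference of the disc list was -0.02 log2 units, and its sums overlapped, with 1456 to 2228 at P4, against 1282 to 2326 at P3.

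Called genes with a difference of at least 1 log2 unit lay next to each other in 12 runs of 4 or more protein-coding genes with the same direction, a description made after seeing the data. The 9 runs of higher genes held 45 genes and the 3 runs of lower genes 13, of which 4 are the identical tal identifiers. The run of 7 on chromosome 3L from 6130386 to 6139974 was made up of Lcp65Ag3, Cpr65Au, Lcp65Ag2, Lcp65Ag1, Lcp65Af, Lcp65Ae and Cpr65Av, with differences of 1.60 to 10.55 log2 units. A second run of 7 on chromosome 3L (19464049 to 19476423) ran from CG14095 to CG32213 and held 6 uncharacterized genes. On chromosome 3R, Edg84A, Ccp84Ag, Ccp84Af, Ccp84Ae and Ccp84Ad lay together between 6684445 and 6693527, with differences of 4.41 to 8.95 log2 units. Vajk1, Vajk2 and Vajk3, cuticle genes on chromosome 2L, rose with CG42711 between them by 1.41 to 5.88 log2 units.

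Of the 846 genes higher in P4 by at least 1 log2 unit, 309 (36.5%) had their highest stage mean of the time course at P4, 171 (20.2%) in adults and 150 (17.7%) in 3rd instar larvae. Over all genes tested the shares were 5.29% for P4, 24.5% for adults and 19.5% for 3rd instar larvae. Of the 588 genes lower by that margin, 142 (24.1%) had their highest mean at P3, 118 (20.1%) in 3rd instar larvae, 80 (13.6%) at P1 and 59 (10.0%) at P2, against 3.54%, 19.5%, 5.15% and 2.08% of all genes tested. The higher genes were selected for a P4 level above P3 and the lower genes for the opposite, which favours a highest mean at P4 or at P3, so that nothing is read from those shares. The larval instars have 1 library each, so that these shares are a description. The 3rd instar library had a size factor of 0.335 at 13434700 counts, against 0.853 to 1.10 in P4 libraries, which raises its normalized counts. The ranking also holds the 2nd instar library, although the study set aside its 2nd instar samples for low quality.

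Several leading genes formed a narrow peak. The ftz-f1 gene averaged 57.2 ± 7.65, 270.0 ± 128, 3369.7 ± 1139 and 196 ± 38.9 normalized counts at P2, P3, P4 and P5. Jhe averaged 7.6 ± 3.12, 76.2 ± 26.04, 13957 ± 2056 and 1814 ± 176, and Edg78E 26.01 ± 4.47, 50.2 ± 16.4, 94419 ± 14469.5 and 4542 ± 803, at the same stages (SD, n = 3 each). Both genes thus stayed above their P3 level at P5. Lcp65Ad averaged 1.28 ± 1.53, 40.1 ± 16.5, 158445 ± 27238 and 2124 ± 544. Lcp65Ag2 had, next to 36006 ± 5435 at P4, 24993 and 35656 normalized counts in the 1st and 2nd instar libraries. These are 1 library each, and the study set aside its 2nd instar samples for low quality. The 2nd instar library also had a size factor of 0.584 at 8854910 counts, against 0.853 to 1.10 in P4 libraries. Its level is therefore not set against that of P4. TwdlE averaged 136 ± 5.84, 718 ± 107, 61214 ± 1224 and 362 ± 45.7 at P2 to P5 and 3512 ± 306 in 48 h pupae.

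The lower genes followed several courses. Hr3 averaged 1824 ± 95.5, 697 ± 205, 57.3 ± 30.7 and 10.4 ± 2.56 at P2 to P5, with its highest pupal mean at P2, and Kr-h1 625 ± 78.2, 262 ± 74.9, 7.85 ± 4.83 and 2.15 ± 1.98. ImpL1 averaged 2482 ± 178, 36835 ± 1037, 929 ± 62.3 and 75.5 ± 5.41, so that its peak was at P3. Osi7 averaged 583 ± 154, 49977 ± 7219, 1165 ± 671 and 143 ± 26.2 at P2 to P5 and 63778 ± 11232 in 48 h pupae. The neo gene averaged 1349 ± 135, 2022 ± 183, 22.5 ± 5.23 and 546 ± 34.0, then 2365 ± 49.0 at 24 h and 2511 ± 758 at 48 h, so that P4 was a dip between higher stages. Cht5 had a like dip, with 12699 ± 239, 21722 ± 779.7, 2241 ± 61.0 and 9931 ± 306 from P2 to P5 and 27551 ± 2297 at 24 h. The highest mean of ple was that at P1, 53319 ± 9481, followed by 6703 ± 614, 3550.4 ± 924, 126 ± 20.1 and 135 ± 58.8 from P2 to P5.

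**Figure D5:**
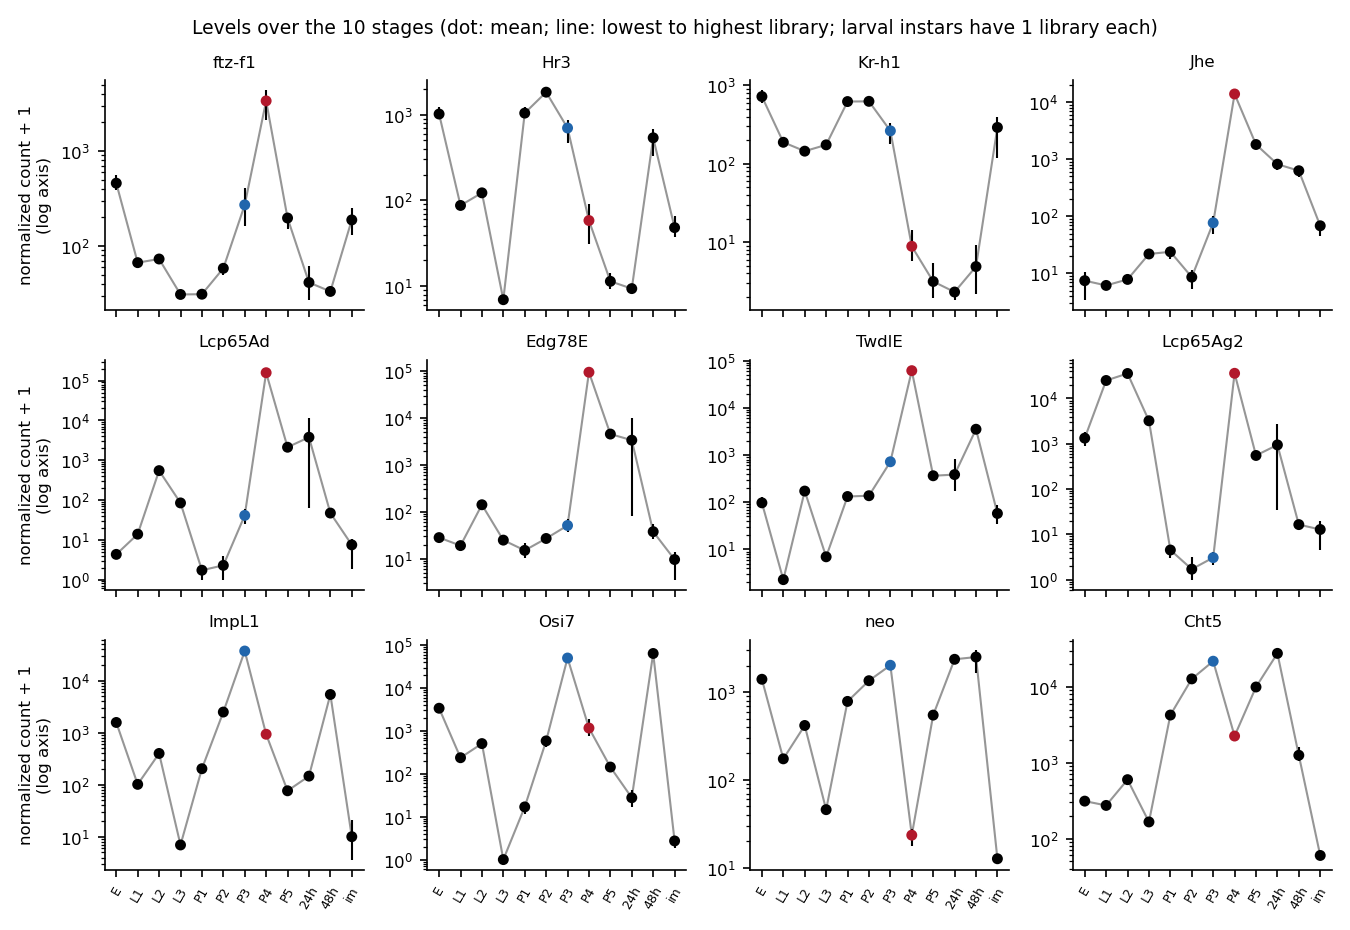
Normalized counts plus 1 (y axis, log axis) of 12 genes over the stages and instars of the time course (x axis; E, embryo; L1 to L3, larval instars with 1 library each; P1 to P5 and 24 h and 48 h, pupae; im, adult). Dots are means and lines run from the lowest to the highest library, with P4 in red and P3 in blue. The genes ftz-f1, Jhe and Edg78E have their highest mean at P4, and neo and Cht5 are lower at P4 than at P3 and at 24 h.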

How the data were processed

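Libraries of poly(A) RNA from entire animals were read as paired ends after a directional library preparation. The authors filtered reads with fastp, quantified transcripts with kallisto against the BDGP6.46 transcriptome (no versions are given in the sources used here), summed them per gene and deposited variance stabilized values on a log2 scale, made with DESeq2. A matching table of *D. virilis* was not used here. The transformation was inverted from the values themselves (value of a count of 0, 4.08738), and every low value (up to 50 counts) was within 0.02 of a whole number in all 30 libraries. The smallest step was taken as 1 count. Recovered counts divided by the size factors are printed as levels, and CPM values were made from them. The tests used the deposited log2 scale.

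Genes whose mean over the 6 libraries was at least 1 log2 unit above the lowest value of the table were tested (11304 of 14127) in limma 3.58.1 (R 4.3.3) with a trended prior and Benjamini-Hochberg adjustment over all of them. The procedure was also run on simulated counts, with a single dispersion for all genes and no deviation by transcript length. That run therefore cannot vouch for the calls in these libraries. Standard errors are those of limma. The 12 genes with the largest non-overlapping difference in each direction, the 8 largest with a name other than an annotation number, and members of gene lists (the 6 with the largest difference where over 20 were measured) were eligible to be named. Any other named gene was picked after its values had been seen. Members and lists were chosen with earlier results of these data known. Alternatives covered the filter, the scale and its pseudocount, the scaling, the libraries in the fit, weights, the replicate block and each library left out. Positions and transcript lengths come from the BDGP6.54 annotation of the same assembly, which placed 14117 of 14127 genes. Whether counting used strand is not given in the sources used here, so that overlapping genes are uncertain. No sequences are shown.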

Additional observations from a re-analysis of the deposited data

How the results depend on the processing

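No named gene reversed the direction of its difference under any alternative run, but the balance of the calls turned, with 1192 higher and 1520 lower genes with the medians of the libraries set equal, 1094 and 1459 on log2(CPM + 1) and 1057 and 1458 on log2(CPM + 5) values. The genes called higher in P4, 1481 on the deposited scale, numbered 2280 with all 30 libraries in 1 limma fit (1447 shared), 2530 with array weights (1475 shared) and 841 to 2070 with 1 library left out, lowest without P3 replicate 2 and highest without P4 replicate 1. The genes called lower, 1179, numbered 686 to 1363 with 1 library left out, again lowest without P3 replicate 2. Counts of genes with a difference of at least 1 log2 unit stayed within 1.5 times of 846 and 588 in every setting, at 706 to 1257 higher and 517 to 647 lower with 1 library left out. The median SD between replicates was 0.158 to 0.249 at P4 and 0.115 to 0.213 at P3 over these fits. Of the 196 named genes that were called, 31 lost the call in at least 1 of the 6 fits that left out 1 library, 9 with the medians of the libraries set equal, 6 on log2(CPM + 1) and 8 on log2(CPM + 5) values, and 9 without both P4 replicate 1 and P3 replicate 3. The cause of these losses was not tested.

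The replicate numbers 1 to 3 occur in both stages, and same-numbered libraries deviated from their stage means with correlations of -0.68, -0.10 and -0.36. Deviations from a mean of 3 libraries depend on each other, and those of P4 replicate 1 and P3 replicate 3 went with transcript length. Whether same-numbered libraries were collected or prepared together therefore cannot be told from these correlations. With the replicate block 897 genes were higher (887 shared) and 685 lower (684 shared), and 30 named genes lost their call. No library correlated best with its own number. The highest coefficients were 0.70 for P4 replicate 1 with P3 replicate 3 and 0.61 for P4 replicate 2 with P3 replicate 1.

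Precision is limited by 3 libraries a stage, and low genes by the depth, for which the recovered totals of 7892283 to 10102896 counts are no firm measure, as the study's text gives fewer reads.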

Other observations

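A few gene families outside the lists described above held single large differences, and they were listed after their values had been seen. Of 13 tested odorant-binding protein genes, which encode small carriers of hydrophobic molecules, 3 were higher and 3 lower in P4. Obp83g had 11917, 9481 and 8133 normalized counts at P4, against 26.9, 26.6 and 44.0 at P3, a difference of 7.32 log2 units (limma, adjusted p = 7.49e-08). Obp99b, in contrast, had 24091, 14093 and 14441 normalized counts at P4, against 41952, 40224 and 85182 at P3, a call that was lost without P4 replicate 3 (limma, adjusted p = 0.0679). Obp83g was named by a rule that asked for no overlap, so that nothing is read from its separation. The other 38 listed odorant-binding protein genes were below the filter.

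Of 5 tested Niemann-Pick type 2 genes, whose products carry sterols, Npc2b rose and Npc2e fell. Npc2b had 2394, 1998 and 1570.0 normalized counts at P4, against 198, 183 and 233 at P3. Mur89F, a gene on the list of peritrophins and mucin-like proteins, had 660.1, 1073 and 2079 normalized counts at P4, against 17720.2, 15748 and 10315 at P3. Peritrophin-A moved the other way, with 674, 443 and 603 normalized counts at P4, against 52.8, 46.2 and 61.4 at P3.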
